A study of Mus musculus with 6 samples.

Results

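In the liver of control Mdr2-/+ mice, 1481 of the 13431 CpG islands (CGIs) measured on chromosomes 1 to 19 had a methylation signal between the low level of most CGIs and the high level of the methylated ones. They were chosen on their mean value in the 3 Mdr2-/+ livers, which had to lie from 0.5 to under 2 on the log2 scale described below. A further 10502 CGIs lay below this range, and 1448 lay at 2 or above. At most of the 1481 CGIs the probes did not all lie in the middle range: 268 of them (18.1%) had middle probes only, while 362 (24.4%) held both low and high probes. The part of a constant response of single probes in this was not tested. In Mdr2-KO livers 163 of them were called higher and 4 lower, and many of the rest had a higher value against Mdr2-/+ replicates 2 and 3 but not against Mdr2-/+ replicate 1.

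The samples were livers of 3 Mdr2-KO males and 3 Mdr2-/+ males, all 12 months old and labelled as FVB. The mutants were the congenic FVB.129P2-Abcb4tm1Bor line, and their cross with FVB/NJ gave the controls. Mdr2 (Abcb4) is the transporter that moves phosphatidylcholine into bile, and its loss gives a chronic inflammation of the liver that is used as a model of liver cancer. The controls were heterozygotes, so that no group in the comparison carried 2 intact copies of Mdr2, and whole liver was used, without separation of hepatocytes from other cells. DNA of each liver was split into input and a fraction enriched by methylated DNA immunoprecipitation (MeDIP), and both were hybridized to 1 CGI array per mouse, which asks how the inflamed liver differs from the control liver in CGI methylation.

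CGIs are short stretches rich in CpG that often overlap promoters, and most of them stay free of methylation in normal tissue. A middle signal in a whole tissue can arise where some of the cells are methylated, where one parental copy is methylated (as at imprinted genes), or where a methylated and an unmethylated stretch lie side by side. In MeDIP an antibody to 5-methylcytosine pulls down fragments that carry several methylated CpGs, so the signal also depends on the density of CpGs in a fragment and is not a fraction of methylated molecules. In DNA of a whole tissue, a change in the share of a cell type and a change of methylation within its cells cannot be told apart.

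The value of a probe was the log2 of its MeDIP signal over its input signal, set to 0 at the median probe of its array. Neighbouring probes were joined to a CGI where their starts lay 500 bp or less apart, 3 probes being the minimum, and the value of the CGI was their mean. The files give probe positions but no gene names, so CGIs are named by position in the mm8 build of the mouse genome. The 1481 CGIs held 8132 probes. They had a median of 5 probes (at most 31) and a median length of 524 bp (quartiles 394 and 784 bp), against 644 bp over all 13822 CGIs that were tested. The limits of 0.5 and 2 cut through a continuous range of values. The CGI just under the lower limit, chr6:118104422-118104957, had a mean of 0.4997 in Mdr2-/+ livers, and the one just inside it, chr9:56434096-56434351, had 0.5005. At the upper limit, chr12:111873671-111874121 with 1.995 was just inside and chr7:28175344-28176581 with 2.001 was just outside. The CGIs thinned out towards the upper end. Within 0.25 of the lower limit there were 585 of them and within 0.25 of the upper limit 79, and 935 (63.1%) lay under 1.

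In each of the 6 livers these CGIs were at a middle level on the whole, and 1 control liver stood apart from the others. The median over the 1481 CGIs was 1.097, 0.74 and 0.78 in Mdr2-/+ replicates 1, 2 and 3. It was 1.18, 1.15 and 1.04 in Mdr2-KO replicates 1, 2 and 3. Mdr2-/+ replicate 1 thus lay within the range of the Mdr2-KO livers, and it was the highest of the 3 control livers at 1262 of the CGIs (85.2%). Its median excess over Mdr2-/+ replicates 2 and 3 was 0.36 at these CGIs and 0.10 over all CGIs. In the same comparison Mdr2-KO replicate 1 exceeded Mdr2-KO replicates 2 and 3 by a median of 0.06. The excess of Mdr2-/+ replicate 1 was not particular to the partly methylated CGIs. At the CGIs of 2 and above the medians of Mdr2-/+ replicates 1, 2 and 3 were 4.752, 3.765 and 3.753. At those below 0.5 they were close, at -0.29, -0.30 and -0.30. The SD of the log2 ratios of the array was also widest in replicate 1 of the controls, at 1.83 against 1.56 and 1.52. Mdr2-/+ replicate 1 shared an array slide with Mdr2-KO replicate 1, whereas Mdr2-/+ replicates 2 and 3 lay on another slide and Mdr2-KO replicates 2 and 3 on a further one. For these 4 arrays the slide and the genotype cannot be told apart.

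**Figure D1:**
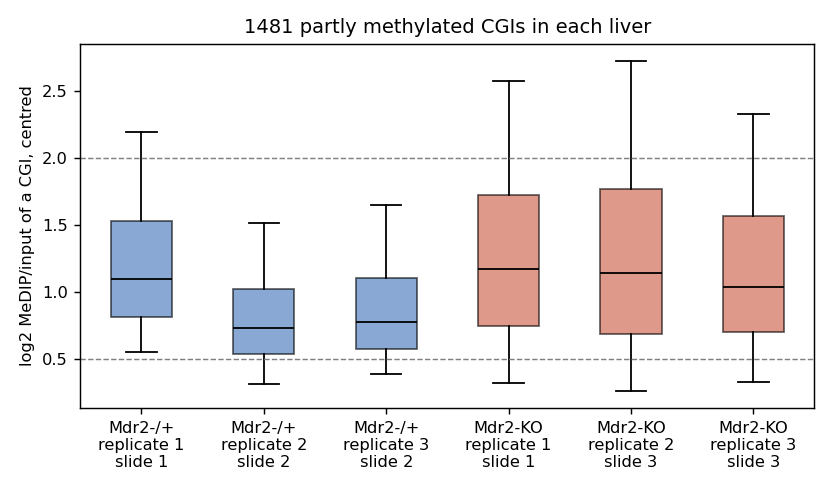
Methylation signal of the 1481 partly methylated CGIs in each liver, as the centred log2 ratio of MeDIP over input (y axis). Boxes span the quartiles with a line at the median, whiskers reach from the 5th to the 95th percentile of the CGIs, and dashed lines mark the limits 0.5 and 2 that the Mdr2-/+ mean had to meet. The median of Mdr2-/+ replicate 1 (1.097) lies among those of the Mdr2-KO livers (1.04 to 1.18), above Mdr2-/+ replicates 2 (0.74) and 3 (0.78).

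Single control livers mostly shared the middle level of their mean, which the choice on that mean largely fixes. At 878 CGIs (59.3%) all 3 Mdr2-/+ livers were in the range from 0.5 to under 2, and at 634 (42.8%) all 6 livers were. At only 2 CGIs was 1 Mdr2-/+ liver below the range and another at or above its upper end. Of the 1481 values of a liver, those inside the range numbered 1282, 1177 and 1262 in Mdr2-/+ replicates 1 to 3 and 1089, 1009 and 1138 in Mdr2-KO replicates 1 to 3. The median SD over the 3 livers of a genotype was 0.25 in Mdr2-/+ and 0.14 in Mdr2-KO livers, and 94 CGIs had a control SD above 0.5.

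To see whether a middle level came from all probes of a CGI or from a mixture, each probe was classed by its own mean in the 3 Mdr2-/+ livers as low (under 0.5), middle (0.5 to under 2) or high (2 or more). Of the 8132 probes, 2328 (28.6%) were low, 4897 (60.2%) middle and 907 (11.2%) high. All probes were middle at 268 CGIs (18.1%). At 701 CGIs (47.3%) there were low and middle probes, at 150 (10.1%) middle and high probes, and at 362 (24.4%) at least 1 low and at least 1 high probe. Since a mean from 0.5 to under 2 cannot come from low probes alone or from high probes alone, these were the 4 makeups possible. CGIs with both low and high probes made up 5.23% of the CGIs below 0.5 and 2.28% of those at 2 and above, classes that can also be filled by uniform CGIs. In the highest class 1144 CGIs (79.0%) had high probes only.

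**Figure D2:**
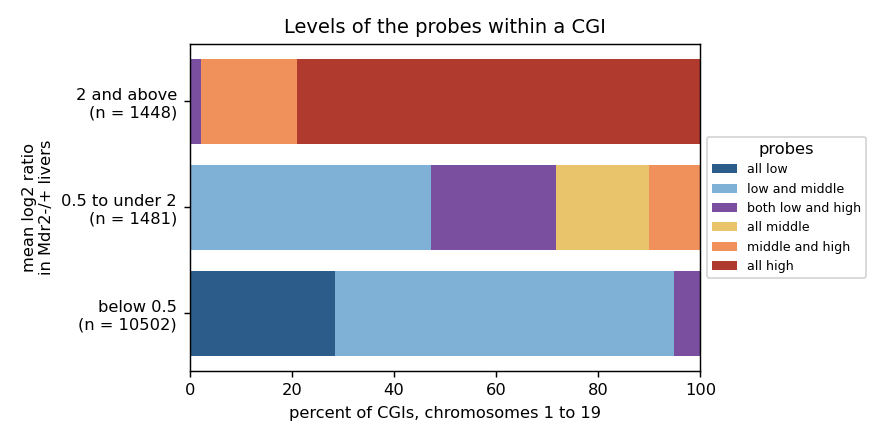
Percent of CGIs (x axis) by the levels of their probes in Mdr2-/+ livers, for the 3 classes of CGI mean (y axis, with the number of CGIs in each). Low is a probe mean under 0.5, middle 0.5 to under 2 and high 2 or more on the centred log2 scale. CGIs of the middle class hold both low and high probes in 24.4% and middle probes only in 18.1%.

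The makeup went with the number of probes. Among the 727 CGIs with 3 or 4 probes, 215 (29.6%) had all probes middle and 80 (11.0%) had both low and high probes. Among the 519 with 5 to 7 probes these numbers were 44 (8.48%) and 142 (27.4%). Among the 235 with 8 or more probes they were 9 (3.83%) and 140 (59.6%). The CGIs with all probes middle were also short, with a median length of 398 bp against 814 bp for those with both low and high probes. The share of CGIs with all probes middle therefore depends on how many probes the array places on a CGI. Even within CGIs of middle probes alone the values were spread. The median distance between the lowest and the highest probe was 0.65 there, and 79 of the 268 had a distance under 0.5. The same distance was 3.08 at CGIs with both low and high probes.

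The probe patterns recurred from liver to liver. Within the 1481 CGIs the pooled SD of probe means about their CGI mean was 0.82. Each probe was then taken as its distance from the CGI mean of the same array, which leaves out shifts of a whole CGI. This distance varied between livers of the same genotype with an SD of 0.27 for a single probe. For the mean of 3 livers this is an SD of 0.16, or 3.70% of the variance found between the probes of a CGI. Spread between probes was not particular to these CGIs. The pooled SD of probe means was 0.92 over all CGIs, 0.96 at those below 0.5 and 0.74 at those of 2 and above. The Mdr2-KO livers, which had no part in classing the probes, kept the order of the classes. Low, middle and high probes had means of -0.08, 1.17 and 2.60 in Mdr2-/+ livers and 0.22, 1.49 and 3.01 in Mdr2-KO livers. In the 362 CGIs with both low and high probes, the high probes exceeded the low ones by a median of 2.71, 2.68 and 2.72 in Mdr2-KO replicates 1, 2 and 3. The difference was above 0 in 359, 358 and 362 of these CGIs, and it reached 1 in 350, 348 and 351 of them. The correlation of the probes' deviations from their CGI mean between the 2 genotypes was 0.920 over 8132 probes, against 0.912 over all CGIs. It is a description, since all arrays share the probes, and a constant response of a probe (its CpG density or its hybridization) would recur in every liver as a methylation pattern would. Its part in these patterns was not tested. The deviations had a correlation of 0.152 with the input signal of the probe.

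The order of low and high probes was read in the 362 CGIs with both. Read along the chromosome with middle probes left out, 268 of the 362 (74.0%) switched once between low and high, 81 (22.4%) switched 2 times, 8 switched 3 times and 5 switched 4 times. Many of them had few probes of a kind, which limits the number of switches to 1 or 2 beforehand: 233 had a single high probe and 91 a single low probe. Only in the 97 CGIs with 2 or more of each can separate stretches be seen, and 79 of these switched once. At 116 CGIs (32.0%) the run began with a low probe and ended with a high one or the reverse. At 43 both end probes were low, at 3 both were high, and at 200 at least 1 end probe was middle. There were 29 CGIs of low and high probes only, without a middle probe.

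The CGIs with the most probes show both forms. At chr7:82742003-82746466, with 31 probes, the mean was 0.98, 0.68 and 0.72 in Mdr2-/+ replicates 1 to 3 and 1.08, 1.12 and 0.90 in Mdr2-KO replicates 1 to 3. The Mdr2-KO livers did not lie apart from the control livers here. It had 18 low, 4 middle and 9 high probes, with probe means from -2.37 to 4.13 in Mdr2-/+ livers, and its last 9 probes were all high. The CGI chr11:74981445-74985588 ran the other way, with 30 probes of which the first 16 were high. Its mean was 2.51, 1.67 and 1.76 in Mdr2-/+ livers and 2.54, 2.72 and 2.41 in Mdr2-KO livers, so that replicate 1 of the controls lay between the Mdr2-KO values. At neither CGI was the difference between genotypes past the threshold of limma (0.24 with adjusted p = 0.356 and 0.58 with adjusted p = 0.194). A gradient was seen at chr2:25398966-25401981, with 25 probes that fell from 3.02 at the first to -0.41 at the last in Mdr2-/+ livers. This CGI had 2.06, 1.27 and 1.24 in Mdr2-/+ livers and 3.03, 2.82 and 2.70 in Mdr2-KO livers, and every probe was higher in Mdr2-KO livers. The genotypes differed by 1.33, with a standard error of 0.22 (limma, adjusted p = 0.0208). This call ended without Mdr2-/+ replicate 2 (1.20), without Mdr2-/+ replicate 3 (1.19), without Mdr2-KO replicate 1 (1.24) and without Mdr2-KO replicate 2 (1.35). It also ended with loess, which cut the difference to 0.46, and with normexp, at 1.29.

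Among the CGIs with all probes middle, the 3 with the most probes had wider probe ranges than the median of 0.65. At chr6:88159103-88160221, with 11 probes from 0.53 to 1.74, the mean was 1.36, 1.05 and 0.80 in Mdr2-/+ livers and 1.33, 1.32 and 1.22 in Mdr2-KO livers. The 2 genotypes overlapped, and on the shared slide the sign turned to -0.03. At chr13:57917018-57918137, with 10 probes from 0.92 to 1.68, the values were 1.69, 0.97 and 1.04 in Mdr2-/+ and 1.78, 1.73 and 1.498 in Mdr2-KO livers. At chr16:17716292-17717223, also with 10 probes, from 0.99 to 1.88, they were 2.05, 1.26 and 1.15 in Mdr2-/+ and 2.36, 2.26 and 2.20 in Mdr2-KO livers. Only the third of these CGIs had genotypes that did not overlap, and its difference of 0.79 missed the threshold (adjusted p = 0.0959 from limma). Without Mdr2-/+ replicate 1 the CGIs on chromosomes 13 and 16 were called higher, at 0.66 (adjusted p = 0.00816) and 1.07 (adjusted p = 0.000861).

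**Figure D3:**
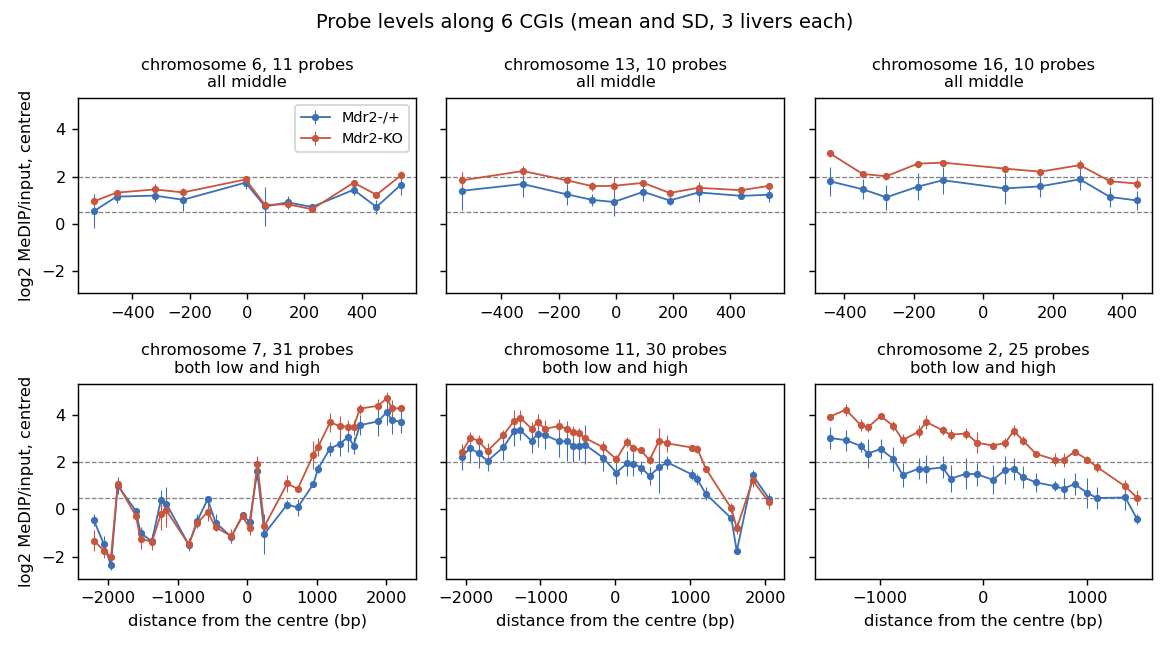
Centred log2 ratio of MeDIP over input at each probe (y axis) against its distance from the middle of the CGI in bp (x axis), as mean and SD of 3 Mdr2-/+ livers (blue) and 3 Mdr2-KO livers (red). The upper row shows the 3 CGIs with the most probes among those with all probes between the dashed limits 0.5 and 2 in Mdr2-/+ livers, and the lower row the 3 with the most probes among those with both low and high probes. On chromosome 7 the last 9 of 31 probes are high, on chromosome 11 the first 16 of 30, and on chromosome 2 all 25 probes are higher in Mdr2-KO livers.

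The ends of the CGIs were above the inner parts at some CGIs and below them at others. Over the 754 partly methylated CGIs with at least 5 probes, the 2 end probes minus the inner probes had a median of -0.03 (quartiles -0.42 and 0.37) in Mdr2-/+ livers, and the ends were higher at 361 (47.9%). At the CGIs of 2 and above the median was -0.43, with higher ends at 19.7%, and at those below 0.5 it was 0.08, with higher ends at 53.8%. In Mdr2-KO livers the median at the partly methylated CGIs was -0.17. The probe means of all 3 classes were chosen by the same arrays, so these values are descriptions.

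Gains outnumbered losses in Mdr2-KO livers at the partly methylated CGIs. Of the 1481, 163 (11.0%) were called higher and 4 (0.270%) lower at an adjusted p under 0.05 from limma, and over all CGIs tested 4.28% were called higher and 0.21% lower. The choice used the Mdr2-/+ values of this same contrast, so nothing is read from the difference between these shares. The genotypes did not overlap, with all Mdr2-KO livers higher, at 445 (30.0%) against 15.9% over all CGIs, and with all Mdr2-KO livers lower at 104 (7.02%) against 10.8%. The median difference was 0.21 (quartiles -0.03 and 0.51, range -1.15 to 3.39) at the partly methylated CGIs and 0.00 over all CGIs. A difference of 1 or more was found at 108 and of -1 or less at 1. With quantile normalization 232 were called higher and 40 lower, a more even split. Over all 13822 CGIs this setting called 990 higher and 380 lower.

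The number of calls depended on single arrays. Where an Mdr2-/+ array was left out, the CGIs were chosen again on the remaining controls, so the set changed as well. Without Mdr2-/+ replicate 1, the control liver that lay among the Mdr2-KO values, limma called 600 of 1400 higher and 27 lower. Over all 13822 CGIs it called 2640 higher and 328 lower in this fit, so the change was not particular to the partly methylated CGIs. Without Mdr2-/+ replicate 2 it called 36 of 1580 higher and 1 lower (91 and 6 over all CGIs). Without Mdr2-/+ replicate 3 it called 24 of 1585 higher and 0 lower (64 and 1 over all CGIs). Leaving out an Mdr2-KO array kept the 1481 CGIs. It gave 14 higher for replicate 1, 41 for replicate 2 and 126 for replicate 3, with 0 lower in each. Over all CGIs the same fits called 33, 151 and 445 higher and 1, 4 and 7 lower. In the fits without 1 array, 354 to 751 gains and 38 to 77 losses had an unadjusted p under 0.05.

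The pair of arrays on the shared slide differed little over the set as a whole. Between the 2 livers of replicate 1, the median difference at the 1481 CGIs was 0.02 (quartiles -0.21 and 0.29), and 779 (52.6%) were higher in the Mdr2-KO liver. Over all CGIs this pair had a median of -0.04, with 45.3% higher. For replicates 2 and 3, which lay on separate slides by genotype, the median was 0.32 and 1142 (77.1%) were higher, against 0.03 and 54.1% over all CGIs. When the CGIs were chosen again on Mdr2-/+ replicates 2 and 3 alone, 1400 were found, of which 1254 were shared (84.7% of the first choice and 89.6% of the second). In the pair of replicate 1, which had no part in that choice, their median difference was 0.03, with 55 at 1 or more and 11 at -1 or less. Against Mdr2-/+ replicate 1, the mean of the 3 Mdr2-KO livers had a median difference of -0.01 at these 1400 CGIs. With slide as a fixed block, which leaves this 1 pair as the contrast, limma called 5 of the 1481 higher and 1 lower, and the unadjusted p was under 0.05 for 178 gains and 73 losses.

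**Figure D4:**
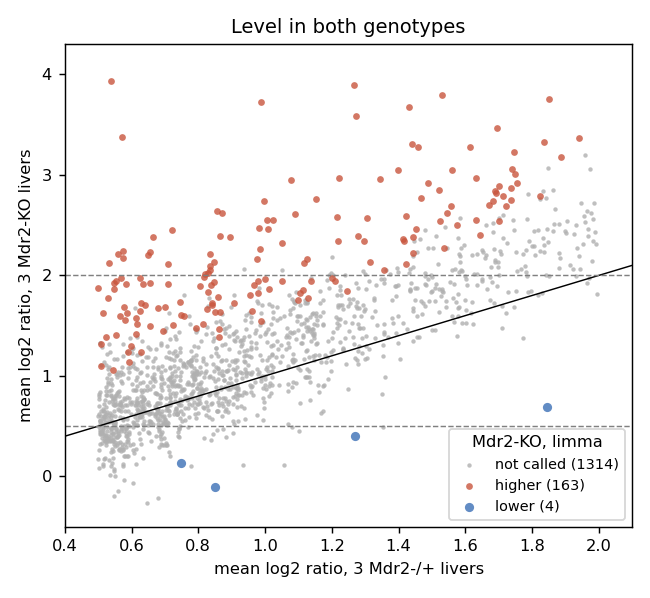
Mean centred log2 ratio of the 3 Mdr2-KO livers (y axis) against that of the 3 Mdr2-/+ livers (x axis) for each of the 1481 partly methylated CGIs, with the line of equality and dashed lines at 0.5 and 2. Red points mark the 163 CGIs called higher and blue points the 4 called lower by limma, and 91 of the red points lie at 2 or above in Mdr2-KO livers.

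The differences were larger where the control level was higher, a description, since that level is part of the difference. From 0.5 to under 1, 87 of 935 CGIs (9.30%) were called higher and the median difference was 0.11. From 1 to under 1.5 it was 44 of 350 (12.6%) with a median of 0.34, and from 1.5 to under 2 it was 32 of 196 (16.3%) with a median of 0.48. By the mean of the Mdr2-KO livers 1095 CGIs stayed in the middle range, 216 moved to 2 or above and 170 moved below 0.5. Of the 196 CGIs nearest the upper limit, 135 were at 2 or above in Mdr2-KO livers, and of the 163 called higher, 91 were. CGIs near a limit cross it with small changes, and 127 of the 170 that moved below 0.5 were of low and middle probes.

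CGIs of each makeup were among the gains. Called higher were 36 of the 268 with all probes middle (13.4%), 67 of the 701 with low and middle probes (9.56%), 24 of the 150 with middle and high probes (16.0%) and 36 of the 362 with both low and high probes (9.94%). Their median differences were 0.34, 0.12, 0.48 and 0.21. Most kept their makeup, except for those with all probes middle. With the same limits on the Mdr2-KO means, 283 of the 362 CGIs with both low and high probes (78.2%) still had both, and 58 (16.0%) had middle and high probes. Of the 268 with all probes middle, 106 (39.6%) still had middle probes only, 94 (35.1%) had middle and high probes, 37 (13.8%) low and middle probes and 25 (9.33%) high probes only.

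At most of the 163 CGIs called higher every probe rose, though not by the same amount. The median difference was 1.09 (quartiles 0.86 and 1.40), 100 CGIs had 1 or more, and at 146 every probe was higher in Mdr2-KO livers. Their 242 low probes rose from a median of 0.04 to 1.25, their 680 middle probes from 1.19 to 2.35 and their 103 high probes from 2.24 to 3.48. The median rise was 1.21, 1.14 and 1.03 in these 3 classes, so that the order of the classes was kept at a higher level. These values are descriptions. The CGIs were called on the mean of the same probes, and the classes rest on the control values of the same difference. The change lay in the MeDIP channel, whose centred signal differed by a median of 1.03, while the input channel differed by -0.02. On the shared slide their median difference was 0.83 (quartiles 0.65 and 1.104), and 55 had 1 or more. That all 163 were higher there follows from the groups not overlapping.

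The 8 largest gains brought a CGI to 3.37 or more in the mean of the Mdr2-KO livers. The largest was at chr17:73952265-73952825, where the Mdr2-/+ livers had 1.34, -0.08 and 0.35 and the Mdr2-KO livers 3.79, 4.13 and 3.86. Its control level was middle only as a mean, since 2 of the livers were below 0.5. Its 4 inner probes were low in Mdr2-/+ livers and its 2 end probes middle, and all 6 stood between 3.60 and 4.13 in Mdr2-KO livers. At chr7:18463322-18463899 all 5 probes were middle, at 0.51 to 0.74. The livers had 0.88, 0.27 and 0.57 in Mdr2-/+ and 3.17, 3.43 and 3.51 in Mdr2-KO, a difference of 2.80 (standard error 0.18, adjusted p = 0.00168 from limma). At chr15:85638834-85639782 all 8 probes were middle as well, but the control livers were far apart. They had 2.17, 0.04 and 0.75 against 3.87, 3.47 and 3.82 in Mdr2-KO livers, a difference of 2.73 with a standard error of 0.46 (adjusted p = 0.0208). Its middle probes were thus the mean of a high, a low and a middle liver, and its call ended when any array but Mdr2-/+ replicate 1 was left out, with differences of 2.26 to 2.86. In this CGI MeDIP was well above background at 21 of 24 spots in Mdr2-/+ livers, with 1 probe never above it there.

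The other 5 gains differed in how far the control livers lay apart. At chr17:33561633-33562151 the Mdr2-/+ livers had 1.70, 0.62 and 1.49 and the Mdr2-KO livers 3.82, 3.90 and 3.97, and at chr19:46362184-46362704 they had 2.01, 0.76 and 1.05 against 3.61, 3.48 and 3.68. On chromosome 19 MeDIP was well above background at 15 of 18 spots in Mdr2-/+ livers, with 1 probe never above it there. At chr12:77336223-77336815 the values were 1.44, 1.17 and 1.69 against 3.65, 3.60 and 3.76. In this CGI the difference on the shared slide (2.21) was nearly that over all livers (2.24, standard error 0.15, adjusted p = 0.00185 from limma). Its signal was dim, with the input well above background at 18 spots over the 6 arrays and MeDIP at 11 of 15 spots in Mdr2-/+ livers, and 1 probe was never above background there. At chr11:102590006-102591027, with 10 probes, the values were 2.05, 1.40 and 1.14 against 3.90, 3.63 and 3.84. The first 3 probes there stood at 1.42 to 2.95 in Mdr2-KO livers and the others at 3.83 to 5.13, with MeDIP well above background at 24 of 30 spots in Mdr2-/+ livers, 27 of 30 in Mdr2-KO livers, and at no Mdr2-/+ spot for 2 of the probes. At chr2:180571280-180572339 they were 2.44, 1.46 and 1.65 against 3.77, 4.01 and 3.49. Among these 5 CGIs, that on chromosome 19 was no longer called when Mdr2-/+ replicate 3 (2.20) or Mdr2-KO replicate 1 (2.30) was left out. The one on chromosome 2 was lost when Mdr2-/+ replicate 3 (1.80), Mdr2-KO replicate 1 (1.90) or Mdr2-KO replicate 2 (1.78) was left out. On the shared slide the 8 differences were 1.33 to 2.45. Loess within arrays kept the 8 calls at smaller differences, from 0.62 on chromosome 2 to 1.94 on chromosome 7, and at chr17:73952265-73952825 it gave 1.48 in place of 3.39. With normexp the 8 differences were 1.04 to 2.73 and none was called.

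**Figure D5:**
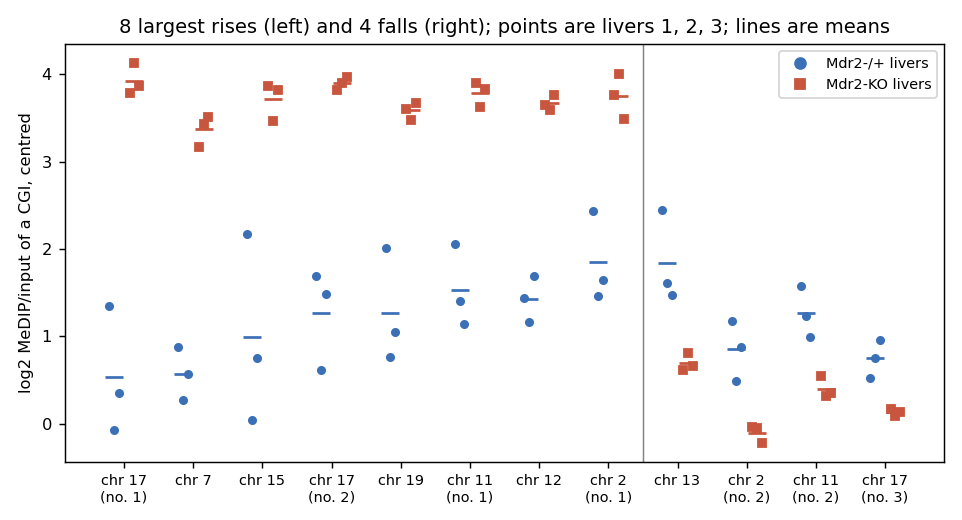
Centred log2 ratio of MeDIP over input (y axis) in each liver at the 8 CGIs with the largest gain, left of the vertical line in the order of the gain, and the 4 CGIs called lower, right of it, named by chromosome (x axis). Blue circles are Mdr2-/+ and red squares Mdr2-KO livers in the order of replicates 1 to 3, and short lines are means of 3 livers. At the gains the Mdr2-KO livers lie between 3.17 and 4.13. At the CGI on chromosome 2 among the falls (chr 2, no. 2) no spot was well above background.

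Losses were few. The largest was at chr13:24287825-24288977, with 9 probes, where the Mdr2-/+ livers had 2.45, 1.61 and 1.48 and the Mdr2-KO livers 0.62, 0.81 and 0.66. This is a difference of -1.15, with a standard error of 0.24 (limma, adjusted p = 0.0387), and of -1.83 on the shared slide. It was uneven along the CGI: the first 4 probes, high at 2.47 to 3.78 in Mdr2-/+ livers, had differences of -1.72 to -2.08, while the seventh probe, also high, stood at 3.06 and 2.84 in the 2 genotypes. MeDIP was well above background there at 25 of 27 spots in Mdr2-/+ and 24 of 27 in Mdr2-KO livers. At chr11:117082071-117082876, with 7 probes, the values were 1.57, 1.24 and 0.99 in Mdr2-/+ and 0.54, 0.31 and 0.35 in Mdr2-KO livers, a difference of -0.87 (standard error 0.16, adjusted p = 0.0289). The last probe of this CGI fell most, by -1.83, and the Mdr2-/+ livers lay far apart at it (0.73, 3.22 and 2.03). MeDIP was well above background at 20 of 21 spots in Mdr2-/+ and 18 of 21 in Mdr2-KO livers, with 1 probe never above it in Mdr2-KO livers. At chr17:72824360-72824709, with 4 probes, the values were 0.53, 0.76 and 0.96 against 0.17, 0.09 and 0.14, a difference of -0.62 (standard error 0.14, adjusted p = 0.0455). In this CGI 2 of the 4 probes were not well above background in the MeDIP channel on any array. The call at chr2:71381844-71382313 rests on 3 probes of which none was well above background in either channel on any array, so its size (-0.95) is not interpretable. Leaving out any array but Mdr2-/+ replicate 1 ended the 4 calls, except that chr2:71381844-71382313 stayed called without Mdr2-/+ replicate 2. In the fits that ended the other 3 calls the differences were -1.33 to -1.11 on chromosome 13, -1.004 to -0.82 on chromosome 11 and -0.64 to -0.51 on chromosome 17. With normexp these 3 losses were no longer called, at -0.44, -0.08 and -0.10, and loess gave -0.57, -0.61 and -0.51, the last no longer called.

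The signal behind these values was above background at most probes. The MeDIP signal was well above background at 90.0% to 93.8% of their probes per array, against 78.1% to 86.4% of all probes, and no spot was saturated. Low probes were above background less often, at 82.0% of spots in Mdr2-/+ livers, than middle (93.6%) and high probes (98.9%). At 2 of the 1481 CGIs no spot of the Mdr2-/+ livers, and at 3 no spot of the Mdr2-KO livers, was well above background in the MeDIP channel.

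The partly methylated CGIs lay on all 19 chromosomes, from 6.16% of the CGIs on chromosome 3 (37 of 601) to 13.7% on chromosome 17 (89 of 652). The largest number was on chromosome 11, with 156 of 1180. Their nearest other CGI lay at a median distance of 20715 bp, against 26148 bp over all CGIs. For 521 (35.2%) it lay within 10 kb, and this neighbour was below 0.5 at 347, partly methylated at 86 (16.5%) and at 2 or above at 88 (16.9%). Over all CGIs with a neighbour within 10 kb these last 2 shares were 13.4% and 15.4%.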

How the data were processed

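DNA of 3 Mdr2-KO and 3 Mdr2-/+ livers was hybridized to 2-colour Agilent CpG island arrays, with the MeDIP fraction in Cy5 and the input in Cy3 per the labels. The authors deposited 1 scanner file per array. Per the file headers, its processed intensity values were background-subtracted and dye-normalized by Agilent Feature Extraction (10.5.1.1 in the header, 8.5.1.1 in the submitters' processing notes), with no normalization between arrays. The authors also deposited a table of Z-scores per probe, a score with unstated scaling, which served as an alternative. Its columns for Mdr2-/+ replicates 1, 2 and 3 correlated best with the scanner arrays of replicates 2, 3 and 1 (0.981, 0.987 and 0.976 over probes), so that only the genotype of a column was used. Replicates are separate mice.

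Of 88737 probes that were not controls, 91 were dropped because at least 1 array called their spot an outlier. The log2 ratio of both processed signals was centred on the median of each array and averaged over runs of at least 3 probes with starts 500 bp or less apart, since CGI names were not used here. All 13822 runs were compared with limma 3.58.1 in R 4.3.3 (lmFit and eBayes, two-sided, Benjamini-Hochberg adjustment over all runs, no covariate), and an adjusted p under 0.05 was called. The partly methylated CGIs, the rules for named CGIs and the tests were chosen with earlier results of these data known. Named were the called CGIs with the 8 largest gains and up to 5 largest losses (4 were found), and the 3 CGIs with the most probes among those with all probes middle and among those with both low and high probes. The 99 runs of the same range on chromosome X were not members. A list of imprinted genes could not be applied, since no gene names were given for mm8 positions. The alternatives were loess, normexp and quantile normalization, division by each array's SD, the median over probes, other probe filters and distances, other limits, a block for replicate or slide, array weights, the methods' t-test, the threshold of 0.7 on delta Z, the authors' Z-scores, and leaving out each array. Outlier spots and background calls come from the scanner files, and the slide of an array was read from a number in the name of its scanner file. The number of arrays limits the precision.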

Additional observations from a re-analysis of the deposited data

How the results depend on the processing

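The number of partly methylated CGIs (1481) was 754 with at least 5 probes per CGI and 700 with the range 0.75 to under 1.5, both smaller by construction, and 1400 to 1585 with 1 Mdr2-/+ array left out. The percent with both low and high probes (24.4%) was 37.4% with at least 5 probes, 17.3% where CGIs were chosen by the median over probes, 11.3% with limits of 0 and 2.5 for probes, and 21.1% to 27.9% with 1 array left out. The median difference (0.21) was 0.0222 within the slide that holds both genotypes (chosen after seeing the data) and 0.0292 in replicate 1 with CGIs chosen on replicates 2 and 3. It was 0.12 to 0.37 with 1 array left out, against -0.02 to 0.04 over all CGIs. With quantile normalization it was 0.06 against -0.07 over all CGIs, with loess 0.11 against -0.01, and with normexp 0.31 against 0.11.

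The CGIs called higher and lower by limma (163 and 4) numbered 632 and 42 with array weights, 328 and 17 after division by each array's SD, 378 and 31 with the authors' Z-scores (1171 of the CGIs), 232 and 40 with quantile normalization, 94 and 4 with loess, 82 and 2 in the narrower range, 145 and 2 with at least 5 probes, and 65 and 1 by a delta Z of 0.7. Over all 13822 CGIs the counts were 591 and 29 in the main fit and 2562 and 569 with array weights. They were 1270 and 146 after division by each array's SD, 990 and 380 with quantile normalization and 399 and 21 with loess. The authors' Z-scores gave 1388 and 322 of 10519 CGIs. With normexp limma called 0 and 0 (606 and 1 at an unadjusted p under 0.05), and the methods' t-test, adjusted by Benjamini-Hochberg, called 1 and 0 (345 and 57 unadjusted). With 1 array left out the counts were 14 to 600 higher and 0 to 27 lower, the CGIs being chosen again without an Mdr2-/+ array. Over all CGIs these fits called 33 to 2640 higher and 1 to 328 lower. Slide as a fixed block left 5 and 1, and as a random block (chosen after seeing the data) 124 and 3. The fit with the replicate block called 149 and 5, and it ended the call at chr17:72824360-72824709 (adjusted p = 0.0723). The replicate numbers were not taken as pairs, since deviations of same-numbered livers had correlations of 0.11, -0.09 and 0.12.

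Among the named CGIs the sign turned at chr7:82742003-82746466 with the median over probes (-0.10) and at chr6:88159103-88160221 with slide as a fixed block (-0.0323), neither of them called. The 13 calls among the named CGIs ended with normexp and, at unchanged differences, with the methods' t-test, and the fixed slide block ended 8. Loess ended 2, at chr17:72824360-72824709 (-0.51) and chr2:25398966-25401981 (0.46). The cause of these changes was not tested. Dim probes limit the low values: restricting to probes well above background on all arrays left 1151 CGIs, with 144 called higher and 5 lower.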
